A study of Mus musculus with 16 samples.

Results

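The 8 libraries described here are the 4 labelled palmitate and the 4 labelled IL-1β in a set of 16 bulk RNA-seq libraries of murine gingival fibroblasts (mGF), the matrix-making cells of the gum. They were chosen by their deposited labels alone, palmitate replicates 9 to 12 and IL-1β replicates 5 to 8, and were set directly against each other over all genes. The question was which gene programs separate the 2 agents when each is given without the other. The cells were primary cultures from WT C57Bl6 mice of 3 to 6 months of age, grown from the gingiva around the second molar of the maxilla in DMEM with 20% fetal bovine serum and used at passages 2 to 8. The palmitate group carried 200 µM of a complex of palmitate with BSA, the IL-1β group 1 ng/mL of recombinant mouse IL-1β, and the 4 control libraries, replicates 1 to 4, 200 µM of the BSA vehicle. The treatment label of the IL-1β group names IL-1β alone, whereas figure legends of the study pair IL-1β with either palmitate or the BSA vehicle. Whether the IL-1β group also carried BSA is therefore uncertain. A further 4 libraries, replicates 13 to 16, carried both agents. A figure legend of the study gives a treatment time of 24 h, which the labels do not state. The labels name a stranded kit for total RNA, whereas the study's methods describe cDNA primed with oligo(dT), so which RNAs were captured is uncertain. Neither source says whether the 4 libraries of a group are separate cultures, so the p-values below may measure technical spread alone.

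Palmitate, a saturated fatty acid, travels on albumin and is turned inside cells into its CoA ester, to be burned in mitochondria or stored in lipid droplets. Fatty acids also activate the peroxisome proliferator-activated receptors (PPARs), nuclear receptors that switch on genes of fatty acid oxidation and lipid storage. IL-1β binds a receptor on fibroblasts whose adaptors pass the signal to NF-kB, a transcription factor that drives chemokines, cytokines, adhesion molecules and, as a brake, several of its own inhibitors. Interferon-stimulated genes form a separate antiviral program, usually driven by STAT and IRF factors, and in the gum all of these bear on how fibroblasts call in and retain leukocytes.

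Most of the genes that report each agent ran against the labels, and this comes first because it sets the direction of everything after it. Of the genes that fatty acids are known to induce, most were higher in the libraries labelled IL-1β. Conversely, most of the genes that IL-1 is known to induce were higher in the libraries labelled palmitate. Expression is given throughout as CPM, a gene's counts scaled to a common library total, on library sizes adjusted by TMM, edgeR's correction for composition, with 4 libraries in each group. Angptl4, a secreted inhibitor of lipoprotein lipase and a classical PPAR target (ENSMUSG00000002289.17, chr17:33992724-34000804, minus strand of GRCm39), measured 99.7, 101, 105 and 96.4 CPM in the libraries labelled IL-1β and 16.9, 22.5, 22.7 and 20.7 CPM in those labelled palmitate. Its level in the BSA controls was 3.08, 4.07, 6.29 and 4.33 CPM. Both single agents thus stood above the controls without overlap, and the libraries labelled IL-1β were the higher of the 2 in every case. With both agents Angptl4 measured 160.4, 157, 151 and 147 CPM. The fitted log2 fold change of palmitate minus IL-1β was -2.26 (SE 0.07), with an adjusted p of 3.79e-14 by the quasi-likelihood test of edgeR after the Benjamini-Hochberg correction, which is behind every adjusted p below.

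Pdk4, the kinase that inhibits pyruvate dehydrogenase when fat is burned (ENSMUSG00000019577.7, chr6:5483097-5496339, minus strand), measured 90.4, 86.5, 100.3 and 92.6 CPM under the IL-1β label and 42.4, 39.5, 40.4 and 40.8 CPM under the palmitate label. BSA controls held 34.4, 30.6, 34.3 and 31.8 CPM, so the palmitate label sat just above them and the IL-1β label far above. Cpt1a, the gate through which long-chain fatty acids enter mitochondria (ENSMUSG00000024900.6, chr19:3371853-3437996, plus strand), measured 207, 216, 226 and 216 CPM under the IL-1β label, 82.6, 86.2, 83.7 and 76.7 CPM under the palmitate label and 109.8, 110.2, 114 and 113 CPM in the controls. Here the 2 labels lay on opposite sides of the controls. Plin2, which coats lipid droplets and is stabilised by them (ENSMUSG00000028494.13, chr4:86565912-86588459, minus strand), did the same, with 89.1, 82.1, 88.8 and 77.5 CPM, 48.6, 53.6, 49.2 and 49.1 CPM and 62.2, 61.9, 62.0 and 63.5 CPM in that order of groups. The libraries with both agents measured 124, 126, 115 and 117 CPM for Pdk4, 217, 214, 221 and 204 CPM for Cpt1a and 86.6, 82.6, 85.4 and 80.6 CPM for Plin2. Those values lie above the IL-1β label for Pdk4 and overlap it for the other genes. Palmitate minus IL-1β log2 fold changes were -1.19 (SE 0.05) for Pdk4, -1.40 (SE 0.04) for Cpt1a and -0.75 (SE 0.05) for Plin2, all called lower. Slc25a20, which carries acylcarnitines into the mitochondrion, was lower as well (-0.57 (SE 0.07)), though other genes match 17.9% of its transcript, and Ucp3 had too few counts to test.

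Most genes that IL-1 is known to induce in fibroblasts ran the other way. Cxcl5, a neutrophil attractant (ENSMUSG00000029371.8, chr5:90907186-90909483, plus strand), measured 566, 591, 576 and 593 CPM under the palmitate label, 29.5, 28.8, 32.5 and 26.9 CPM under the IL-1β label and 2.81, 3.00, 3.24 and 2.86 CPM in the controls. Cxcl1, its close relative (ENSMUSG00000029380.12, chr5:91039094-91040974, plus strand), measured 402, 396, 412 and 362, then 145, 148, 165 and 145, then 14.6, 14.4, 12.8 and 15.4 CPM in the same order. In both genes the 3 groups were fully separate, with the controls lowest and the palmitate label highest. Il6, the cytokine behind much of the acute-phase response (ENSMUSG00000025746.12, chr5:30218112-30224979, plus strand), measured 6.84, 8.29, 9.10 and 7.63 CPM, 0.859, 1.01, 0.696 and 1.12 CPM and 0.384, 0.452, 0.534 and 0.384 CPM. Ccl2, the main monocyte attractant (ENSMUSG00000035385.6, chr11:81926397-81928279, plus strand), measured 327, 341, 338 and 364 CPM, 132, 108, 116 and 97.3 CPM and 20.2, 19.4, 15.9 and 25.3 CPM. Nfkbia, the inhibitor that NF-kB induces against itself (ENSMUSG00000021025.9, chr12:55535332-55539432, minus strand), measured 73.4, 76.6, 76.2 and 73.9 CPM, 47.6, 49.1, 47.7 and 42.6 CPM and 17.7, 15.5, 16.5 and 17.4 CPM. In all 3 the libraries labelled IL-1β stood above the controls, and those labelled palmitate stood higher again. Log2 fold changes of palmitate minus IL-1β were 4.30 (SE 0.05) for Cxcl5, 1.38 (SE 0.05) for Cxcl1, 3.13 (SE 0.15) for Il6, 1.59 (SE 0.09) for Ccl2 and 0.68 (SE 0.05) for Nfkbia. Of the other such genes, Saa3, Lcn2 and Tnfaip3 were higher under the palmitate label too, Cxcl2 was not called (0.02 (SE 0.12), or -0.16 without palmitate replicate 10), and Ptgs2 was higher under the IL-1β label (-0.43 (SE 0.04)). Whether the labels correspond to the treatments, or were exchanged between the 2 groups, was not tested. The groups are kept as labelled, and every direction below is a direction between labels.

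**Figure D1:**
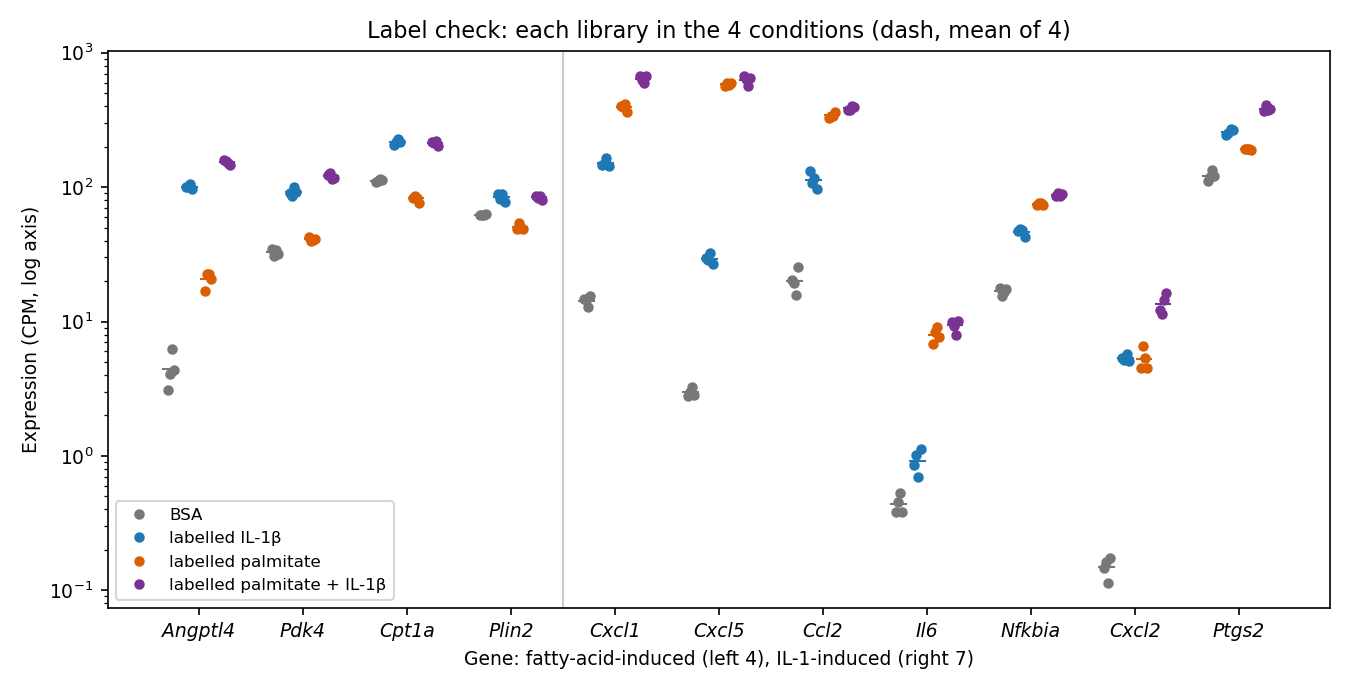
Expression (CPM, log axis) of 4 genes that fatty acids induce and 7 genes that IL-1 induces, one point per library in each of the 4 conditions, with a dash at each mean. The fatty acid genes are higher under the IL-1β label (Angptl4 96.4 to 105 CPM against 16.9 to 22.7 CPM), and 5 of the IL-1 genes are higher under the palmitate label (Cxcl5 566 to 593 CPM against 26.9 to 32.5 CPM), whereas Cxcl2 overlaps between labels and Ptgs2 is higher under the IL-1β label.

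All 8 libraries carried the marks of fibroblasts. All 14 markers of gingival fibroblasts passed the filter on low counts, and their summed level was 54428 to 60118 CPM under the IL-1β label and 48179 to 54405 CPM under the palmitate label, with the fibronectin gene Fn1 taking the most counts. Of these 14 markers 2 were called higher under the palmitate label, Pdgfra (0.41) and S100a4 (0.47), and 6 lower, Twist1 (-0.51), Fap (-0.26), Vim (-0.23), Col1a2 (-0.22), Prrx1 (-0.21) and Col1a1 (-0.14), where 18.3% and 17.2% of all genes tested were higher and lower. The call of Fap was lost without IL-1β replicate 6 (-0.20) or palmitate replicate 10 (-0.24), 11 (-0.22) or 12 (-0.24). The call of S100a4 was lost without IL-1β replicate 6 (0.43) or 8 (0.37) or palmitate replicate 10 (0.50) or 11 (0.37), and another gene matches 50.5% of its transcript. The 12 keratinocyte markers summed to 4.40 to 6.26 CPM under the IL-1β label and 3.11 to 3.69 CPM under the palmitate label, without overlap. Most of the counts came from the junction protein gene Dsp (-0.72, called lower), and Krt4, a keratin of oral epithelium, had no count in any of the 8 libraries. The 10 endothelial markers summed to 2.81 to 3.24 CPM and 2.38 to 3.41 CPM under the IL-1β and palmitate labels, with Vwf the most counted under the first and Cdh5 under the second, and Cldn5 at 0 in every library. Of these Tek was called lower (-0.81), but not without IL-1β replicate 5 (-0.83), 6 (-0.77) or 8 (-0.72) or palmitate replicate 10 (-0.63) or 12 (-0.74). The 14 leukocyte markers summed to 3.35 to 3.68 CPM and 2.57 to 3.65 CPM, with Csf1r the most counted and with S100a9 and Ly6g at 0 in every library. Csf1r was called lower (-0.52), but not without palmitate replicate 11 (-0.47). Mural and muscle markers, 10 genes led by Mcam, summed to 188 to 220.5 CPM under the IL-1β label and 181 to 194 CPM under the palmitate label, where Cspg4 (-0.39) and Notch3 (-0.61) were called lower and Myh11 (0.39) higher. Markers of Schwann cells and melanocytes are not described here. What part these differences between markers have in the results was not tested, and in bulk RNA fewer cells of a type and less RNA per cell cannot be told apart.

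The libraries labelled IL-1β held 24376996 to 31314557 gene counts, 3 of those labelled palmitate held 21234789 to 27076430, and palmitate replicate 10 held 92752515. A single count more or less therefore weighs least in that library, and 3 counts, the level below which a gene cannot be told from absent, correspond to 0.0323 CPM in it and to 0.0958 to 0.141 CPM in the other 7. Floors of this kind cover counting error only. Mitochondrially encoded genes took 11.4% to 14.0% of counts under the IL-1β label and 11.9% to 13.2% under the palmitate label. The first principal component of the 500 most variable genes carried 84.2% of the variance and split the 2 labels cleanly. The next carried 3.92% and set IL-1β replicate 8 apart from its group. Euclidean distances between libraries over the same 500 genes were 10.1 to 18.2 within a label and 43.1 to 48.6 between labels. Picking genes by their variance over these 8 libraries favours genes that differ between labels. The components and distances therefore do not measure separation over all genes. Over all genes tested the biological coefficient of variation, the spread between replicates beyond counting noise, was 5.59%.

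Against that small spread, 5375 of the 15141 genes tested (35.5%) were called different at an adjusted p under 0.05. Of these 2770 (18.3% of genes tested) were higher under the palmitate label and 2605 (17.2%) were lower. The changes were lopsided in size. The log2 fold change passed 1 in 563 called genes, 368 of them higher and 195 lower under the palmitate label, and passed 2 in 126 higher and 15 lower. The median called rise was 1.25-fold, the median over all genes tested was a log2 fold change of -0.01, and 4964 genes (32.8%) had all 4 libraries of a label above all 4 of the other. For a gene whose groups do not overlap, the exact two-sided permutation p of 4 against 4 libraries is 0.0286 by construction, the smallest that its 70 divisions allow, so it adds nothing to the absence of overlap.

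**Figure D2:**
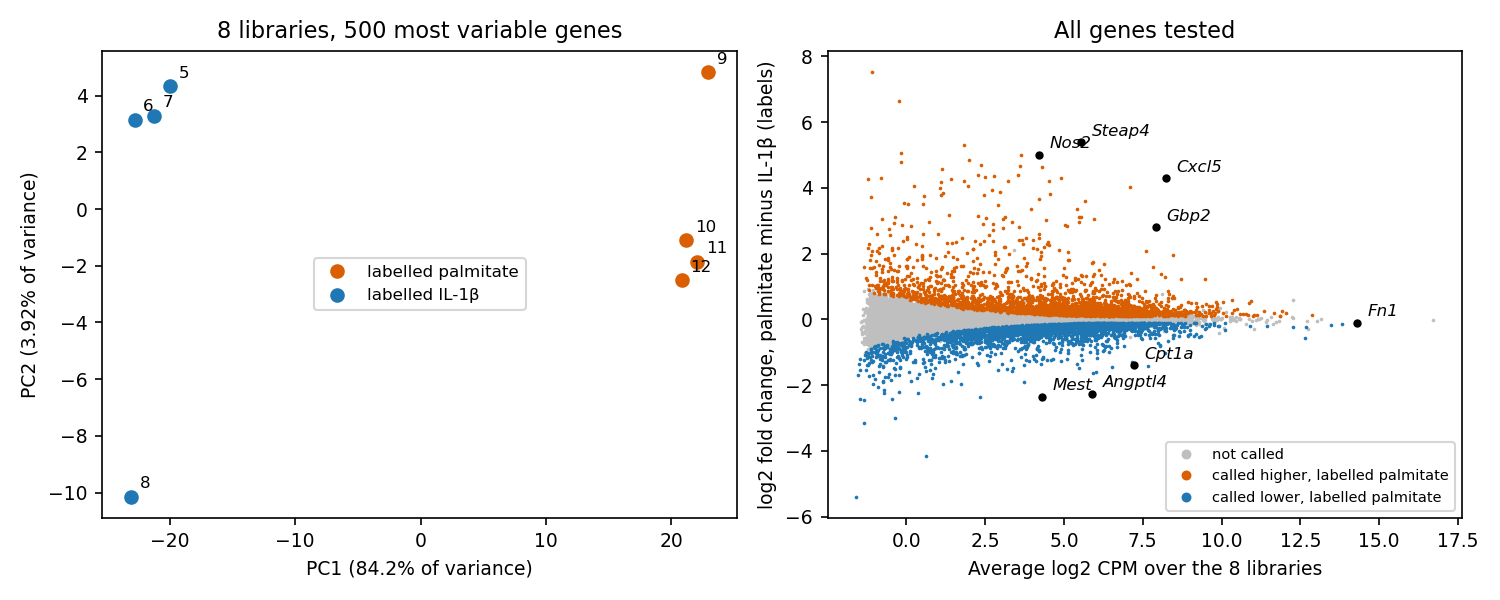
Left, the first 2 principal components of the 8 libraries, numbered by replicate, and right, the log2 fold change of palmitate minus IL-1β (labels) against average log2 CPM, with one dot per gene tested. The first component holds 84.2% of the variance of the 500 most variable genes and separates the labels, and the largest changes lie above 0.

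The comparison with BSA gives each difference a side. All 4 libraries labelled palmitate lay above all 4 controls in 3142 of the genes tested (20.8%) and below them in 2603 (17.2%). For the IL-1β label the counts were 1794 (11.8%) and 1025 (6.77%). These counts share the same 4 control libraries and are set side by side without a test. Gene lists below were chosen with earlier results of these data known, so each is described by its counts and median alone, to be read beside the shares and the median just given for all genes. Where a count of 5 or fewer is spelled out, members not picked by the rule for named genes were chosen after their values were seen.

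The 12 largest rises under the palmitate label, among called genes with an average log2 CPM of at least 1 and no overlap between labels, included genes of antimicrobial defence and of the interferon response. Steap4, a metalloreductase induced by inflammation (ENSMUSG00000012428.10, chr5:8010260-8032214, plus strand), measured 89.9, 93.5, 87.4 and 91.2 CPM under the palmitate label, 2.17, 1.40, 2.56 and 2.40 CPM under the IL-1β label and 0.680, 0.678, 0.381 and 0.454 CPM in the controls. Nos2, the inducible nitric oxide synthase (ENSMUSG00000020826.10, chr11:78811613-78851080, plus strand), measured 29.9, 38.3, 35.2 and 35.3, then 1.19, 1.13, 1.11 and 0.869, then 0.118, 0.226, 0 and 0 CPM. Lcn2, which withholds iron from bacteria (ENSMUSG00000026822.15, chr2:32274645-32278264, minus strand), measured 5.29, 7.03, 6.64 and 5.05, 0.0818, 0.273, 0.0949 and 0.166 and 0, 0.161, 0.0762 and 0.0349 CPM. All 3 were scarce in the controls and high in each library labelled palmitate, while the IL-1β label lay clear of the controls for Steap4 and Nos2 and overlapped them for Lcn2. Lcn2 rested on 2 to 7 counts a library under the IL-1β label, so its fold is imprecise. Saa3, an acute-phase protein made outside the liver, measured 21.6, 24.2, 25.8 and 21.0 CPM against 0.777, 0.624, 0.696 and 0.786 CPM. Cxcl9, a T cell attractant, measured 9.22, 9.49, 8.29 and 9.77 CPM against 0.613, 0.351, 0.127 and 0.373 CPM. The log2 fold changes were 5.39 (SE 0.09) for Steap4, 5.30 (SE 0.25) for Lcn2, 5.01 (SE 0.11) for Nos2, 5.01 (SE 0.12) for Saa3 and 4.70 (SE 0.20) for Cxcl9, with adjusted p from 6.10e-21 for Steap4 to 2.03e-13 for Lcn2. The other 7 were the interferon-induced GTPases Gbp6 (4.66), Iigp1 (4.64) and Tgtp2 (4.35), the ubiquitin-like Isg15 (4.58), the nucleic acid sensor Zbp1 (4.41), the PYHIN family gene Ifi203 (4.40) and the serine protease inhibitor Serpina3f (4.84). Several of these belong to families of near-identical genes, and at 95% identity or more other genes match 100% of the transcript of Tgtp2, 93.4% of Gbp6, 61.6% of Isg15, 50.5% of Ifi203 and 27.3% of Serpina3f. Reads placed at more than 1 site were not counted, so the levels of those genes are uncertain.

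Chemokines separated the labels as a class. Of 11 CXC and CX3C chemokines tested 10 were higher under the palmitate label, none was lower, and the median log2 fold change was 1.64. Against the controls, 11 stood above under the palmitate label and 9 under the IL-1β label. Cxcl16, a membrane-bound ligand that is also a scavenger receptor, measured 56.8, 60.1, 58.3 and 52.9 CPM against 8.63, 7.92, 7.34 and 7.53 CPM, with 2.69 ± 0.377 CPM (SD, n = 4) in the controls. Cx3cl1, fractalkine, which tethers monocytes, measured 310.0, 319, 324 and 324 CPM against 70.3, 74.2, 80.7 and 72.6 CPM, with 37.0 ± 1.46 CPM (SD, n = 4) in the controls. In both genes every library labelled palmitate exceeded every one labelled IL-1β, with log2 fold changes of 2.86 (SE 0.06) and 2.10 (SE 0.04). The exception was Cxcl2, a neutrophil attractant encoded beside Cxcl1, which measured 4.51, 6.55, 5.32 and 4.52 CPM under the palmitate label and 5.32, 5.19, 5.69 and 5.09 CPM under the IL-1β label. The groups overlapped, the log2 fold change was 0.02 (SE 0.12) with an adjusted p of 0.913, and both labels lay far above the controls at 0.150 ± 0.0259 CPM (SD, n = 4). Without palmitate replicate 10 it was -0.16. With both agents Cxcl2 reached 12.2, 11.5, 14.5 and 16.3 CPM, above either label alone.

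Among CC chemokines 8 of 10 were higher under the palmitate label, with a median of 1.72, and 1, Ccl28, was lower (-0.28). That call was lost without any single library other than IL-1β replicate 6, at -0.24 to -0.29. Ccl5, which draws T cells and monocytes, measured 41.7, 41.7, 41.9 and 47.3 CPM under the palmitate label, 2.78, 2.03, 2.81 and 1.57 CPM under the IL-1β label and 0.342 ± 0.166 CPM (SD, n = 4) in the controls. Ccl7, a monocyte attractant, measured 203, 195, 208 and 211 CPM, 76.4, 69.2, 76.2 and 82.2 CPM and 20.7 ± 1.55 CPM (SD, n = 4). Ccl9, a myeloid attractant also active on osteoclast precursors, measured 22.8, 20.3, 20.0 and 19.4 CPM, 5.40, 5.62, 5.85 and 5.75 CPM and 1.74 ± 0.358 CPM (SD, n = 4). In these 3 genes the libraries labelled IL-1β lay between the controls and the libraries labelled palmitate. Their log2 fold changes were 4.20 (SE 0.11), 1.42 (SE 0.05) and 1.85 (SE 0.08).

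The interleukins and colony-stimulating factors moved the same way, with 8 of 11 tested higher under the palmitate label, none lower and a median of 0.60. Lif, a cytokine of the Il6 family, measured 24.3, 25.0, 27.96 and 25.7 CPM against 8.55, 8.74, 11.5 and 9.97 CPM, with 3.48 ± 0.372 CPM (SD, n = 4) in the controls. Csf1, the growth factor of macrophages and osteoclasts, measured 854, 857, 857 and 859.9 CPM against 589.5, 601, 635 and 619.6 CPM, with 238 ± 2.91 CPM (SD, n = 4) in the controls. Both stood above the controls under either label, and the step between labels was larger for Lif (1.39 (SE 0.08)) than for Csf1 (0.48 (SE 0.04)). With both agents Csf1 measured 1145, 1184, 1214 and 1132 CPM, above all libraries with a single agent.

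Along the IL-1 receptor and NF-kB pathway itself the difference was graded. Of 33 members tested 18 were higher under the palmitate label, with a median of 0.20, and 2 were lower, the NF-kB subunit gene Rel (-0.52) and the ubiquitin ligase gene Traf6 (-0.19). The call of Traf6 was lost without any single library other than IL-1β replicate 5 or palmitate replicate 9, at -0.12 to -0.22. Against the controls 22 members stood above under the IL-1β label and 25 under the palmitate label. Zc3h12a, a nuclease that destroys cytokine mRNAs, measured 46.0, 46.0, 50.7 and 46.1 CPM against 19.5, 18.3, 20.5 and 18.7 CPM, with 6.47 ± 0.447 CPM (SD, n = 4) in the controls. Nfkbiz, a nuclear cofactor of NF-kB for genes such as Lcn2, measured 84.9, 85.7, 83.5 and 79.8 CPM against 44.4, 42.4, 42.5 and 41.7 CPM, with 16.5 ± 1.54 CPM (SD, n = 4) in the controls. Tnfaip3, the A20 deubiquitinase, measured 35.7, 35.0, 35.9 and 34.6 CPM against 23.6, 27.0, 29.4 and 27.2 CPM, with 8.08 ± 0.505 CPM (SD, n = 4) in the controls. All 3 rose stepwise from controls to the IL-1β label to the palmitate label, and differed between labels by 1.29 (SE 0.05), 0.96 (SE 0.04) and 0.39 (SE 0.06) on the log2 scale. Nfkb1 differed by 0.78 (SE 0.04), whereas Nfkb2, the subunit of the slower alternative pathway, measured 199.6, 194, 193 and 195 CPM against 167, 184, 196 and 187 CPM and was not called (0.09, adjusted p 0.124, or 0.047 without IL-1β replicate 5). Il1rl1, the IL-33 receptor, measured 1081 ± 20.2 CPM (SD, n = 4) against 774 ± 31.7 CPM (SD, n = 4) and was higher by 0.48 (SE 0.04).

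Toll-like receptors and their helpers included 6 of 11 higher under the palmitate label, with a median of 0.28, and 1 lower, the flagellin receptor gene Tlr5 (-0.35), whose call was lost without IL-1β replicate 7 (-0.28) or 8 (-0.31) or palmitate replicate 10 (-0.35). Lbp, which hands bacterial lipopolysaccharide to its receptor, measured 79.8, 83.3, 80.8 and 77.5 CPM against 10.6, 9.17, 8.29 and 8.69 CPM, with 6.94 ± 0.187 CPM (SD, n = 4) in the controls. Tlr2, the receptor for bacterial lipoproteins, measured 88.5, 88.5, 94.5 and 95.3 CPM against 26.9, 28.6, 28.4 and 27.9 CPM, with 12.7 ± 0.612 CPM (SD, n = 4) in the controls. Neither gene overlapped between labels, and the log2 fold changes were 3.13 (SE 0.06) and 1.71 (SE 0.05). Tlr4, the lipopolysaccharide receptor, differed less, at 46.8, 44.7, 40.3 and 42.9 CPM against 32.8, 35.9, 37.0 and 38.2 CPM (0.28 (SE 0.05)). Its controls measured 31.5 to 34.0 CPM, overlapping the IL-1β label alone.

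Interferon-stimulated genes separated the labels without exception. All 32 tested were higher under the palmitate label and none lower, with a median of 2.30, which is also the median with Oas3, whose libraries labelled IL-1β held 3 counts or fewer, set at the bound that such counts allow. All 32 stood above the controls under the palmitate label, and 10 of them under the IL-1β label. Ifit1, which blocks translation of viral RNA (ENSMUSG00000034459.9, chr19:34618271-34632174, plus strand), measured 294, 267, 269 and 215 CPM under the palmitate label, 24.4, 11.9, 14.1 and 13.9 CPM under the IL-1β label and 7.36, 6.00, 5.22 and 7.75 CPM in the controls. Parp14, a STAT cofactor, measured 104, 93.4, 91.6 and 82.8 CPM, 28.6, 27.2, 26.5 and 28.8 CPM and 11.9, 10.5, 10.9 and 12.1 CPM. Ifih1, the sensor MDA5 for long double-stranded RNA, measured 27.0, 26.4, 27.4 and 22.8 CPM, 6.54, 5.81, 4.93 and 5.55 CPM and 3.76, 2.78, 4.23 and 3.84 CPM. The libraries labelled palmitate stood well clear of both other groups in all 3 genes. Within each label one library stood out, since IL-1β replicate 5 was the highest of its group for Ifit1 and Ifih1 and palmitate replicate 12 the lowest of its group for all 3. With both agents Ifit1 measured 241, 297, 209 and 430.4 CPM, with replicate 16 the highest. Log2 fold changes were 4.02 (SE 0.24) for Ifit1, 1.74 (SE 0.06) for Parp14 and 2.19 (SE 0.09) for Ifih1, and smaller for the RNA sensors Rigi (0.75 (SE 0.04)) and Eif2ak2 (0.64 (SE 0.04)), the kinase PKR.

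The guanylate-binding proteins and immunity-related GTPases, which attack the vacuoles of intracellular microbes, were higher under the palmitate label in 11 of 11 tested, with a median of 3.11. Gbp2 (ENSMUSG00000028270.13, chr3:142326349-142343779, plus strand) measured 438, 438, 430.2 and 396 CPM under the palmitate label, 60.8, 60.5, 62.5 and 58.8 CPM under the IL-1β label and 24.6, 23.04, 23.4 and 25.7 CPM in the controls. Gbp5, which also promotes inflammasome assembly, measured 90.8, 98.3, 98.8 and 86.3, 8.99, 6.91, 7.46 and 7.49 and 0.680, 1.10, 0.724 and 1.01 CPM. Gbp9 measured 57.8, 57.1, 58.8 and 50.1, 2.62, 2.65, 2.91 and 3.10 and 0.976, 1.00, 0.953 and 0.803 CPM. In all 3 the groups were separate, with the controls lowest and the palmitate label highest, and the labels differed by 2.81 (SE 0.04), 3.60 (SE 0.07) and 4.30 (SE 0.08) on the log2 scale. Iigp1 measured 39.6, 39.96, 39.0 and 29.3 CPM against 2.698, 0.741, 1.52 and 0.993 CPM, again with IL-1β replicate 5 highest and palmitate replicate 12 lowest. Irgm1, a regulator of the other GTPases, had the smallest change of the list (1.33 (SE 0.07)).

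Antigen presentation through MHC class I followed, with 18 of 19 genes higher under the palmitate label, none lower and a median of 1.00. Psmb8, a catalytic subunit that turns the proteasome into the immunoproteasome, measured 10.5, 8.46, 9.17 and 8.50 CPM against 1.06, 1.33, 1.20 and 1.20 CPM, with 0.413 ± 0.234 CPM (SD, n = 4) in the controls. B2m, the light chain shared by all class I molecules, measured 412, 370.3, 362 and 406 CPM against 353, 325, 343 and 329 CPM, with 310.0 ± 15.6 CPM (SD, n = 4) in the controls. Psmb8 separated the labels widely (2.91 (SE 0.13)) and B2m narrowly (0.19 (SE 0.05), adjusted p 0.00201). The 1 member not called was the chaperone gene Calr (0.02, adjusted p 0.690). Its fold change was 0.048 without IL-1β replicate 5 and 0.0049 without IL-1β replicate 8.

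Complement and acute-phase genes were higher under the palmitate label in 12 of 13, with none lower and a median of 0.92. C3, the central complement component (ENSMUSG00000024164.16, chr17:57510964-57535155, minus strand), measured 424, 441, 402 and 404 CPM under the palmitate label, 60.1, 54.4, 62.9 and 56.4 CPM under the IL-1β label and 17.8, 17.3, 17.0 and 20.0 CPM in the controls. Ptx3, a soluble pattern receptor, measured 132, 130.3, 126 and 132 CPM, 107, 93.2, 97.4 and 102 CPM and 55.5, 57.5, 52.1 and 58.0 CPM. Both genes rose in 2 complete steps, a large one to the palmitate label for C3 (2.83 (SE 0.05)) and a small one for Ptx3 (0.38 (SE 0.04)). Cp, the copper oxidase ceruloplasmin, measured 88.7, 82.2, 82.3 and 87.1 CPM against 46.1, 44.9, 46.5 and 45.9 CPM (0.88 (SE 0.04)). Its controls, at 41.9 to 45.1 CPM, reached into the range of the IL-1β label, so the difference lay on the palmitate side.

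Of 7 genes of nitric oxide and arginine tested 4 were higher under the palmitate label, Nos2, Slc7a2, Gch1 and Ass1, and 1 was lower, Slc7a1, for a median of 0.56. Slc7a2, the inducible arginine carrier, measured 59.1, 59.2, 54.7 and 51.6 CPM against 15.3, 13.1, 12.8 and 13.6 CPM, with 8.63 ± 0.186 CPM (SD, n = 4) in the controls. Slc7a1, the housekeeping arginine carrier, measured 118, 116, 108 and 121 CPM against 129.6, 135, 141 and 155 CPM, with 96.9 ± 6.71 CPM (SD, n = 4) in the controls. The carriers thus moved in opposite directions between labels, by 2.04 (SE 0.06) and -0.28 (SE 0.05). Gch1, which supplies the cofactor of nitric oxide synthase, differed by 1.84 (SE 0.17) and Ass1, which recycles citrulline to arginine, by 0.56 (SE 0.04), although other genes match 64.1% of the Ass1 transcript and its level is uncertain.

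Leukocyte adhesion genes were either strongly higher or not called. The 4 called of 8 tested were Icam1, Selp, Vcam1 and Cd44, all higher under the palmitate label, for a list median of 0.69. That median rests between 4 high and 4 low members, and it is 0.13 when a filter of at least 10 counts in every library drops Selp. Icam1, the ligand of leukocyte integrins (ENSMUSG00000037405.9, chr9:20926672-20940113, plus strand), measured 109, 109, 109.6 and 112 CPM under the palmitate label, 12.5, 12.6, 13.5 and 14.4 CPM under the IL-1β label and 1.36, 0.968, 0.724 and 1.71 CPM in the controls. Vcam1 (ENSMUSG00000027962.15, chr3:115903598-115923355, minus strand) measured 575, 574, 571 and 547 CPM, 145, 139, 153 and 147 CPM and 44.7, 41.3, 42.0 and 49.3 CPM. Cd44, the hyaluronan receptor, measured 994, 995, 991 and 1036 CPM, 439, 402, 423 and 428 CPM and 310.2, 309, 301 and 339.7 CPM. The 3 genes were separate in all 3 groups, with controls lowest. Their log2 fold changes between labels were 3.05 (SE 0.05), 1.95 (SE 0.04) and 1.24 (SE 0.04), and that of Selp, the selectin of rolling leukocytes, was 2.57 (SE 0.33).

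Prostaglandin genes did not share a direction. Of 13 tested 4 were higher under the palmitate label, the synthase gene Ptges (0.91), the prostacyclin receptor gene Ptgir (1.68), the phospholipase gene Pla2g4a (0.20) and Ptges3 (0.12), and 4 were lower, the cyclooxygenase genes Ptgs2 (-0.43) and Ptgs1 (-0.13), the prostacyclin synthase gene Ptgis (-0.20) and the receptor gene Ptgfr (-0.20). The median was -0.13. Ptgs2, the inducible cyclooxygenase COX-2, measured 243, 251, 269 and 266 CPM under the IL-1β label, 191, 191, 193 and 190.0 CPM under the palmitate label and 110.2, 119, 135 and 120.0 CPM in the controls. Ptges, which makes prostaglandin E from its product, measured 26.1, 25.2, 25.6 and 25.7 CPM, 46.6, 47.3, 49.97 and 49.99 CPM and 20.0, 21.7, 20.2 and 20.7 CPM. For Ptgs2 both labels were above the controls and the IL-1β label was the higher, while for Ptges the palmitate label was the higher. With both agents Ptgs2 measured 370.0, 408, 376 and 379 CPM, above each label alone, and Ptges 49.7, 52.9, 52.5 and 44.0 CPM. The call of Ptges3 was lost without IL-1β replicate 7 (0.11) and that of Ptgs1 without palmitate replicate 11 (-0.11), and another gene matches 23.9% of the Ptges3 transcript.

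Regulators of osteoclasts and of the matrix were mixed too. Of 7 osteoclast regulators tested Csf1 and Il34 (0.91), another ligand of the same receptor, were higher under the palmitate label. The 3 lower were Wnt5a (-0.47 (SE 0.04)), Sfrp1 (-0.40 (SE 0.07)) and Tnfrsf11b (-0.39 (SE 0.05)), and the list median was -0.31, or -0.18 without IL-1β replicate 5. Tnfrsf11b, the decoy receptor osteoprotegerin, measured 46.9, 44.4, 42.4 and 47.8 CPM under the palmitate label, 59.7, 56.9, 59.9 and 59.5 CPM under the IL-1β label and 63.3, 65.0, 60.0 and 67.5 CPM in the controls. Tnfsf11, its ligand RANKL, was scarce, at 1.31, 0.936, 0.734 and 0.944 CPM against 1.51, 1.33, 0.886 and 1.08 CPM. The groups of Tnfsf11 overlapped and it was not called (-0.31 (SE 0.23), adjusted p 0.325, or -0.18 without IL-1β replicate 5).

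Among 21 matrix metalloproteinases and inhibitors, 9 were higher and 8 lower under the palmitate label, for a median of -0.01 that ran from -0.026 to 0.0032 with a library left out. Mmp13, an interstitial collagenase, measured 54.6, 53.3, 52.4 and 49.4 CPM against 28.7, 29.4, 28.7 and 27.5 CPM, with 17.1 ± 0.450 CPM (SD, n = 4) in the controls. Mmp3, stromelysin, measured 46.1, 48.4, 43.8 and 45.7 CPM against 11.8, 11.3, 9.11 and 10.6 CPM, with 8.64 ± 0.811 CPM (SD, n = 4) in the controls, though other genes match 22.9% of its transcript. Adamts1, an aggrecan-cutting protease, measured 58.1, 59.1, 53.9 and 52.7 CPM against 96.2, 96.9, 94.9 and 92.3 CPM, with 96.8 ± 4.06 CPM (SD, n = 4) in the controls. Mmp13 and Mmp3 were higher under the palmitate label (0.87 (SE 0.05) and 2.11 (SE 0.07)), and Adamts1 was lower (-0.77 (SE 0.04)) with the IL-1β label at the level of the controls. Mmp2, the main gelatinase of fibroblasts, was not called (0.07, or 0.049 without IL-1β replicate 8, 972 ± 19.8 CPM (SD, n = 4) against 919.8 ± 30.0 CPM (SD, n = 4)).

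**Figure D3:**
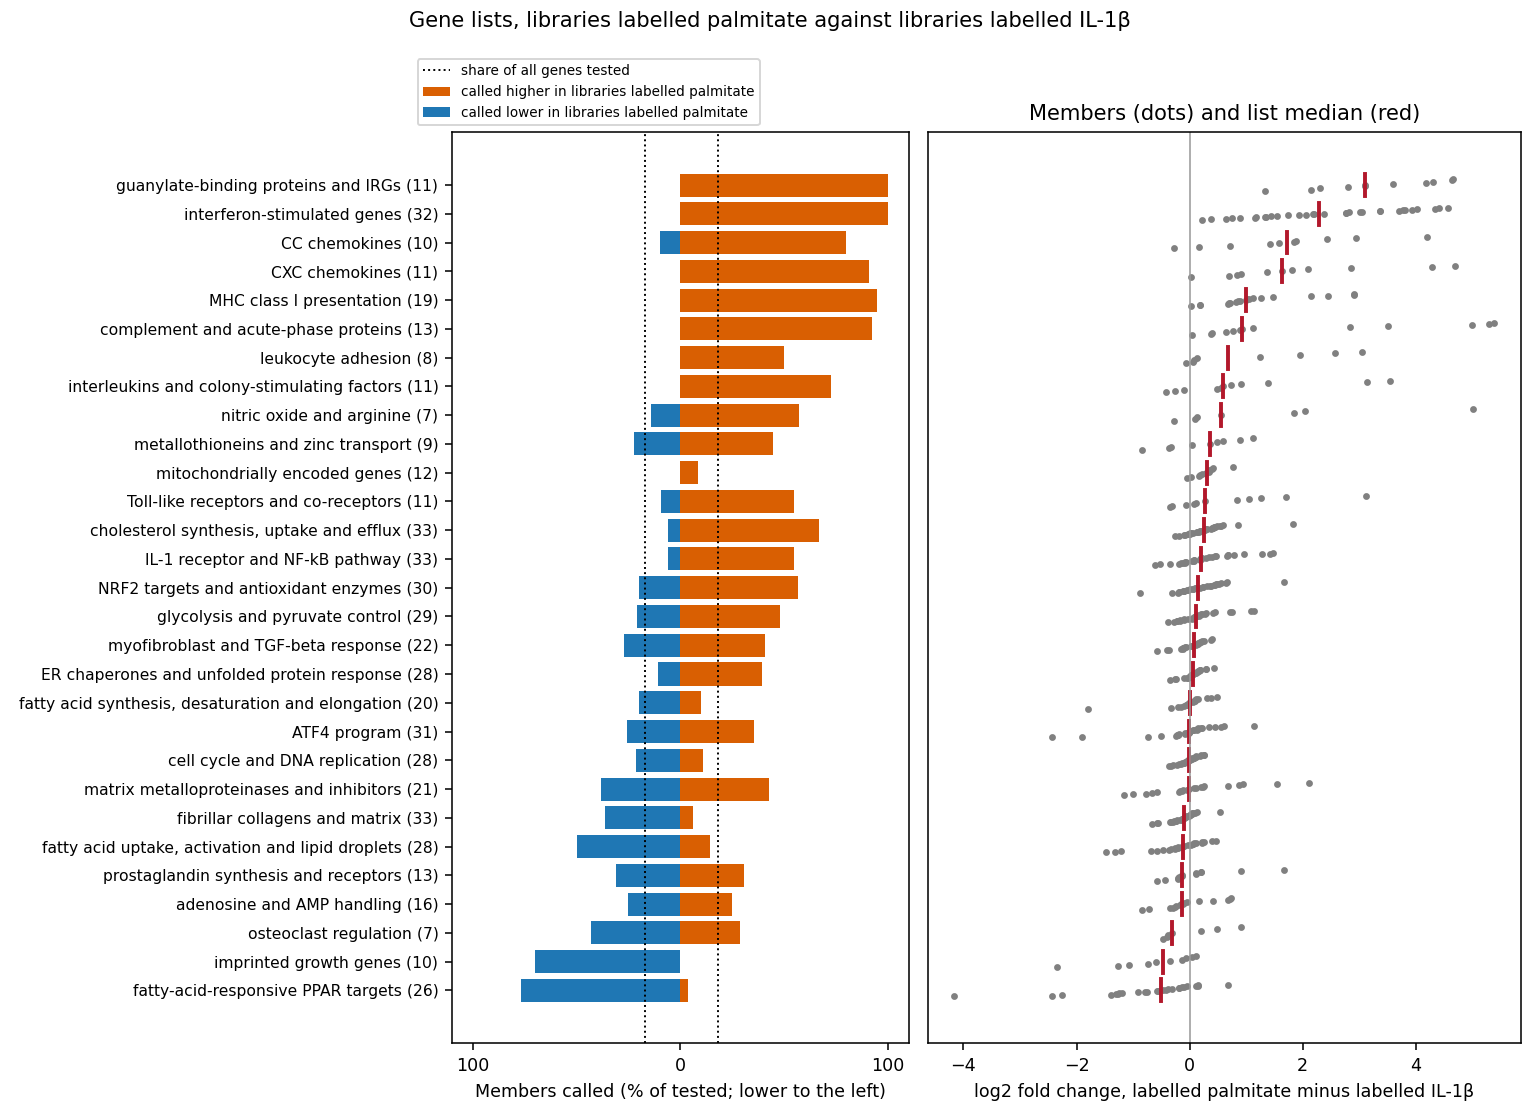
Left, the percent of tested members of each gene list called higher (right) or lower (left) under the palmitate label, with dotted lines at the 18.3% and 17.2% of all genes tested, and right, the log2 fold change of each member with the list median in red. Interferon-stimulated genes and guanylate-binding proteins lie wholly on the palmitate-labelled side, and the PPAR targets lie mostly on the IL-1β-labelled side.

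The clearest program on the IL-1β-labelled side was that of fatty-acid-responsive PPAR targets. Of 26 tested 20 were lower under the palmitate label, and 1, the pantetheinase gene Vnn1, was higher (0.68). The list median was -0.51. Against the controls 16 stood above under the IL-1β label and 17 stood below under the palmitate label. Besides Angptl4, Cpt1a, Pdk4 and Plin2 the list held enzymes of the oxidation spiral. Acadl, the long-chain acyl-CoA dehydrogenase, measured 146, 143, 132 and 139 CPM under the IL-1β label, 98.2, 96.1, 94.4 and 93.4 CPM under the palmitate label and 107, 100.3, 106 and 115 CPM in the controls. The libraries labelled IL-1β were above the controls and those labelled palmitate below them, a difference of -0.55 (SE 0.04). The thioesterase genes Acot1 and Acot2, which split acyl-CoA esters, were lower by -1.31 (SE 0.17) and -0.78 (SE 0.05), but other genes match 31.6% and 53.0% of their transcripts. With both agents Acadl measured 143, 143, 144 and 145 CPM, in the range of the IL-1β label.

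Genes of fatty acid uptake, activation and droplets leaned the same way, with 14 of 28 lower under the palmitate label and 4 higher, Lpin3 (0.46), Acsl5 (0.39), Lpin2 (0.22) and Agpat2 (0.22). The list median was -0.12. Plin4, a coat protein of nascent droplets, measured 61.0, 64.2, 69.3 and 67.3 CPM under the IL-1β label, 23.5, 21.7, 25.8 and 24.5 CPM under the palmitate label and 60.1, 63.8, 62.3 and 60.2 CPM in the controls. Lipe, hormone-sensitive lipase, measured 6.75, 7.37, 7.31 and 6.21 CPM, 2.86, 2.74, 2.75 and 2.87 CPM and 4.17, 4.00, 3.70 and 4.40 CPM. The IL-1β label overlapped the controls for Plin4 and exceeded them for Lipe, while the palmitate label was below the controls in both, for differences of -1.47 (SE 0.06) and -1.31 (SE 0.11). With both agents Plin4 measured 24.1, 22.6, 23.003 and 24.9 CPM, like the palmitate label, and Lipe 5.94, 5.92, 5.88 and 5.26 CPM, nearer the IL-1β label. The call of Agpat2 was lost without any single library other than IL-1β replicate 6 or palmitate replicate 12, at 0.17 to 0.23.

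Most genes of fatty acid synthesis were not called. Of 20 genes tested 2 were higher under the palmitate label, Acly (0.37) and Elovl6 (0.30), and 4 were lower, Fads6 (-1.80), Elovl4 (-0.32), Fads1 (-0.15) and Me1 (-0.11), with a median of 0.00 that ran from -0.032 to 0.021 with a library left out. Acly, which makes cytosolic acetyl-CoA, measured 171, 170.2, 171 and 163 CPM under the palmitate label, 125, 132, 134 and 128 CPM under the IL-1β label and 159, 153, 159 and 165 CPM in the controls. The libraries labelled IL-1β were the ones below the controls. Scd2, a stearoyl-CoA desaturase gene, was not called (-0.04, 689.8 ± 18.5 CPM (SD, n = 4) against 706 ± 44.8 CPM (SD, n = 4)). Its fold change was -0.075 without IL-1β replicate 5 and -0.012 without IL-1β replicate 8. The call of Me1 was lost without IL-1β replicate 7 (-0.10) or palmitate replicate 10 (-0.11), 11 (-0.10) or 12 (-0.10), and that of Elovl4 without palmitate replicate 9 (-0.29) or 10 (-0.32). Other genes match 41.4% of the Me1 transcript, 13.1% of that of Elovl6 and 10.7% of that of Scd2. Fads6 rested on 4 to 15 counts a library under the palmitate label and 10 to 38 under the IL-1β label. Its fold is therefore imprecise, and ran from -2.04 to -1.47 with a library left out.

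Cholesterol synthesis separated the labels from the other side. Of 33 genes of cholesterol synthesis, uptake and efflux 22 were higher under the palmitate label, with a median of 0.26, and 2 were lower, the efflux pump gene Abca1 (-0.25) and the lysosomal exporter gene Npc1 (-0.18). Against the controls 17 stood below under the IL-1β label. Hmgcs1, which makes the precursor of mevalonate (ENSMUSG00000093930.3, chr13:120151915-120170470, plus strand), measured 258, 263, 258 and 257 CPM under the palmitate label, 181, 183, 196 and 208 CPM under the IL-1β label and 253, 265, 303 and 274 CPM in the controls. Sqle, squalene epoxidase, measured 77.3, 78.04, 80.5 and 79.3 CPM, 52.5, 54.0, 59.0 and 58.9 CPM and 69.8, 67.2, 76.9 and 75.9 CPM. The IL-1β label was below the controls in both genes, while the palmitate label overlapped them for Hmgcs1 and lay just above them for Sqle, with differences of 0.43 (SE 0.04) and 0.48 (SE 0.04) between labels on the log2 scale. With both agents Hmgcs1 was lower again, at 147, 155, 159.9 and 157 CPM. The largest rise of the list was outside synthesis, in Ch25h, the interferon-responsive hydroxylase that makes an antiviral oxysterol, at 10.6, 10.8, 11.9 and 12.2 CPM against 3.68, 2.97, 2.56 and 3.60 CPM (1.83 (SE 0.11)).

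Stress programs were divided between the labels. In the ATF4 program, the amino acid and integrated stress response, 11 of 31 were higher and 8 lower under the palmitate label, for a median of -0.01 that ran from -0.012 to 0.0059 with a library left out. Atf3, a stress transcription factor (ENSMUSG00000026628.14, chr1:190902493-190950241, minus strand), measured 20.9, 22.4, 21.7 and 21.7 CPM under the IL-1β label, 6.21, 5.25, 6.27 and 5.91 CPM under the palmitate label and 4.41, 5.10, 5.56 and 5.62 CPM in the controls. The IL-1β label was raised and the palmitate label overlapped the controls, and the difference was -1.91 (SE 0.07). Libraries with both agents measured 19.3, 21.2, 18.7 and 20.6 CPM. Chac1, which degrades glutathione, was lower under the palmitate label as well, at 28.8, 27.2, 30.8 and 28.5 CPM against 45.5, 49.0, 49.8 and 45.8 CPM (-0.73 (SE 0.05)). Slc7a11, the cystine importer, ran the other way, at 396, 397, 359.6 and 375 CPM against 231, 249, 271 and 280.4 CPM, with 49.0 ± 4.36 CPM (SD, n = 4) in the controls (0.56 (SE 0.05)). With both agents it measured 720.2, 745, 891 and 691 CPM, higher than under any single label. Cebpb, a transcription factor shared by stress and inflammation, measured 136, 133, 128 and 129 CPM against 65.1, 56.7, 61.2 and 54.9 CPM (1.14 (SE 0.05)). Atf4 itself measured 294, 304, 304 and 302 CPM against 302, 313, 317 and 279 CPM, and Eif2ak3, which encodes the kinase PERK, 50.9, 52.1, 49.7 and 52.9 CPM against 47.4, 50.8, 48.2 and 45.7 CPM. Neither was called (-0.01 (SE 0.04) and 0.09 (SE 0.05)), and the sign of Atf4 turned without IL-1β replicate 6 (0.00) or 7 (0.01) or palmitate replicate 9 (0.00).

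Endoplasmic reticulum chaperones and unfolded protein response genes moved little, with 11 of 28 higher, 3 lower and a median of 0.06. Hspa5, the chaperone BiP, measured 1676, 1621, 1622 and 1608 CPM under the palmitate label and 1452, 1489, 1473 and 1412 CPM under the IL-1β label, with controls of 1375 to 1565 CPM. The palmitate label lay above the controls and the IL-1β label overlapped them, with a difference of 0.16 (SE 0.03). The 3 lower were genes of degradation from the endoplasmic reticulum, Herpud1 (-0.35), Edem1 (-0.25) and Derl1 (-0.24), and another gene matches 11.1% of the Derl1 transcript.

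Of 30 NRF2 targets and antioxidant enzymes 17 were higher under the palmitate label and 6 lower, for a median of 0.15, and 16 stood above the controls under the IL-1β label against 20 under the palmitate label. Sod2, the mitochondrial superoxide dismutase (ENSMUSG00000006818.6, chr17:13224095-13259591, plus strand), measured 119.7, 117, 113 and 117 CPM under the palmitate label, 37.2, 35.2, 35.5 and 37.7 CPM under the IL-1β label and 30.2, 28.5, 29.7 and 30.8 CPM in the controls. Gclm, a subunit of the enzyme that starts glutathione synthesis, measured 270.2, 253, 243 and 256, 184, 181, 189 and 192 and 86.3, 87.0, 96.4 and 89.3 CPM. Hmox1, heme oxygenase, measured 811, 826, 825 and 788, 882, 967, 949.9 and 884 and 470.3, 411, 425 and 446 CPM. Sod2 stood just above the controls under the IL-1β label and far above them under that of palmitate, Gclm rose under both labels and more under that of palmitate, and Hmox1 rose under both and slightly more under that of IL-1β. The differences were 1.68 (SE 0.04), 0.45 (SE 0.04) and -0.19 (SE 0.04). Osgin1, an oxidative stress gene, was lower under the palmitate label by -0.88 (SE 0.07), at 11.7 to 14.1 CPM against 22.1 to 23.95 CPM. With both agents Gclm measured 382, 398, 381 and 381 CPM and Hmox1 1504, 1616, 1719 and 1604 CPM, each above every library with a single agent.

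Metal carriers did not share a direction. Of 9 genes of metallothioneins and metal transport 4 were higher under the palmitate label, the iron and zinc importers Slc11a2 (1.12), Slc39a14 (0.90) and Slc39a10 (0.59) and the transferrin receptor gene Tfrc (0.49), and 2 were lower, the iron exporter gene Slc40a1 (-0.84) and the zinc exporter gene Slc30a1 (-0.37). The importer gene Slc39a8 (0.04) and the metallothionein genes Mt1 (-0.32) and Mt2 (0.36) were not called. Without IL-1β replicate 5 Mt1 (-0.19) and Mt2 (0.50) were called, and the sign of Slc39a8 turned without palmitate replicate 10 (-0.042) or 12 (-0.0023). The list median was 0.36. Slc11a2, also known as DMT1, measured 62.4, 62.3, 63.3 and 65.8 CPM under the palmitate label, 26.5, 28.2, 29.7 and 31.5 CPM under the IL-1β label and 15.9, 15.8, 16.4 and 16.3 CPM in the controls. Slc40a1, ferroportin, measured 58.2, 55.4, 57.5 and 57.9 CPM, 98.1, 96.8, 105 and 108 CPM and 90.2, 96.4, 100.2 and 82.7 CPM. The importer was raised and the exporter lowered under the palmitate label, each without overlap with the controls.

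Adenosine and AMP handling was divided evenly. Of 16 tested 4 were higher under the palmitate label, Pnp (0.73), the receptor gene Adora2b (0.71), Ampd3 (0.68) and the nucleoside carrier gene Slc29a1 (0.41). The 4 lower were Nt5e (-0.84), Nt5c2 (-0.34), Enpp1 (-0.30) and Slc29a3 (-0.18), and the median was -0.14, or -0.092 without palmitate replicate 9. Nt5e, the ectoenzyme CD73 that makes adenosine from AMP (ENSMUSG00000032420.9, chr9:88209089-88254146, plus strand), measured 10.3, 10.2, 11.0 and 9.56 CPM under the palmitate label, 17.4, 19.3, 18.8 and 17.5 CPM under the IL-1β label and 22.6, 23.4, 24.1 and 22.5 CPM in the controls. Ampd3, which instead deaminates AMP to IMP, measured 170.4, 176, 175 and 164 CPM, 109, 104, 107 and 106 CPM and 35.5, 37.0, 40.2 and 39.5 CPM. For both genes all 3 groups were separate, Nt5e falling and Ampd3 rising from controls to the IL-1β label to the palmitate label. The differences between labels were -0.84 (SE 0.07) and 0.68 (SE 0.04). With both agents they measured 9.71, 9.79, 11.2 and 8.57 CPM and 242, 248, 256 and 255 CPM. The Pnp transcript is matched over 44.7% by other genes, so its level is uncertain. The call of Adora2b was lost without IL-1β replicate 7 (0.66) or 8 (0.60) or palmitate replicate 12 (0.66).

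Of 29 genes of glycolysis and pyruvate control 14 were higher under the palmitate label and 6 lower, with a median of 0.12. Slc2a1, the glucose carrier GLUT1, measured 141, 138, 144 and 141 CPM under the palmitate label, 59.3, 63.7, 69.3 and 62.1 CPM under the IL-1β label and 64.2, 63.2, 66.6 and 62.2 CPM in the controls. Hk2, the inducible hexokinase, measured 69.3, 68.98, 64.1 and 66.0 CPM, 29.9, 30.7, 33.0 and 32.7 CPM and 25.3, 24.4, 27.2 and 25.9 CPM. Pfkfb3, whose product stimulates phosphofructokinase, measured 91.4, 98.9, 90.6 and 97.6 CPM, 55.5, 53.3, 58.3 and 57.9 CPM and 45.003, 44.4, 48.2 and 45.2 CPM. The palmitate label was the highest group in all 3, and the IL-1β label overlapped the controls for Slc2a1 alone. Differences between labels were 1.14 (SE 0.04), 1.08 (SE 0.05) and 0.75 (SE 0.04). Among 12 mitochondrially encoded genes 1, mt-Co3, was called (0.34 (SE 0.11), adjusted p 0.0184), and the median was 0.32, or 0.51 without IL-1β replicate 5 and 0.15 without IL-1β replicate 8. Nearly all of the mt-Co3 sequence has a nuclear copy (99.9% of the transcript is matched), and it measured 4.92 to 5.87 CPM and 3.60 to 4.53 CPM under the palmitate and IL-1β labels. Its call was lost without IL-1β replicate 8 (0.27) or palmitate replicate 12 (0.31).

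Most fibrillar collagen and matrix genes were not called, and those called were mostly lower under the palmitate label. Of the 33 tested 12 were lower and 2 higher, Col5a3 (0.54) and Bgn (0.13), with a median of -0.09. Col1a1, the main chain of type I collagen, measured 14293, 14393, 13206 and 14193 CPM under the palmitate label, 15141, 15169, 15628 and 15552 CPM under the IL-1β label and 13810.1, 13981, 14567 and 14363 CPM in the controls. Thbs2, an antiangiogenic matrix protein, measured 39.8, 39.7, 38.05 and 36.4 CPM, 62.3, 64.0, 59.6 and 58.6 CPM and 59.5, 61.8, 69.5 and 61.2 CPM. For Col1a1 the IL-1β label was the one above the controls, and for Thbs2 the palmitate label was the one below. The differences were -0.14 (SE 0.03) and -0.67 (SE 0.05). Fn1 overlapped between labels and was not called (-0.10, adjusted p 0.489), and its fold change was -0.020 without IL-1β replicate 8 and -0.043 without palmitate replicate 11. Of 22 myofibroblast and TGF-beta response genes 9 were higher and 6 lower, with a median of 0.08, or 0.045 without IL-1β replicate 8. Acta2, smooth muscle actin, measured 3524, 3487, 3524 and 3401 CPM against 3084, 3095, 3145 and 2736 CPM (0.20 (SE 0.04)), while the matricellular genes Ccn2 (0.39 (SE 0.04)) and Ccn1 (-0.57 (SE 0.06)) went opposite ways. The call of Bgn was lost without IL-1β replicate 5 (0.11) or palmitate replicate 12 (0.09).

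The cell cycle list was nearly flat. Of 28 genes of the cell cycle and DNA replication 6 were lower and 3 higher, Ccne2 (0.26), Ccnd1 (0.26) and Cdkn2a (0.21), with a median of -0.01 that ran from -0.038 to 0.018 with a library left out. Cdkn1b, the inhibitor p27, measured 41.4, 41.3, 41.8 and 41.3 CPM under the palmitate label, 54.6, 55.1, 50.2 and 52.6 CPM under the IL-1β label and 62.0, 63.8, 64.8 and 65.2 CPM in the controls. The 3 groups were separate, with the controls highest, and the labels differed by -0.36 (SE 0.04).

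The 12 largest falls under the palmitate label included genes that the IL-1β label left at or close to the control level. Mest, an imprinted gene of mesoderm (ENSMUSG00000051855.16, chr6:30723546-30752058, plus strand), measured 7.33, 6.45, 5.39 and 7.59 CPM under the palmitate label, 35.0, 32.3, 33.0 and 34.1 CPM under the IL-1β label and 38.3, 38.5, 37.5 and 35.2 CPM in the controls. Ndnf, a secreted neurotrophic factor (ENSMUSG00000049001.6, chr6:65648574-65689310, plus strand), measured 1.84, 1.62, 1.83 and 1.89, 9.44, 8.31, 8.35 and 9.97 and 8.01, 8.65, 10.1 and 7.75 CPM. Omd, the matrix proteoglycan osteomodulin, measured 6.21, 5.24, 4.73 and 5.46, 17.6, 17.9, 13.5 and 14.9 and 17.9, 18.6, 21.4 and 20.5 CPM. In all 3 the palmitate label lay far below both other groups, by -2.35 (SE 0.08), -2.36 (SE 0.12) and -1.58 (SE 0.10) on the log2 scale between labels. With both agents Mest measured 8.09, 7.41, 4.98 and 5.08 CPM and Ndnf 1.59, 2.08, 2.02 and 2.24 CPM, as low as under the palmitate label. The rest of the 12 largest falls, besides Angptl4 and Atf3, were the phosphatase gene Ppm1e (-1.97), Reps2 (-1.97), the vasopressin receptor gene Avpr1a (-1.87), Ankrd44 (-1.64), the odd-skipped transcription factor gene Osr2 (-1.60), Tmtc1 (-1.60) and the vesicle GTPase gene Rab27a (-1.54). For Ankrd44 the libraries measured 29.1 to 31.2 CPM against 88.9 to 96.9 CPM and for Tmtc1 29.4 to 35.7 CPM against 92.1 to 107 CPM under the palmitate and IL-1β labels. Mest belongs to a list of imprinted growth genes, of which 7 of 10 tested were lower under the palmitate label and none higher, with a median of -0.47. Of the others, Plagl1, an imprinted zinc finger factor, measured 29.9, 29.5, 30.9 and 31.2 CPM, 67.6, 62.1, 58.9 and 65.5 CPM and 62.0, 66.6, 61.1 and 61.9 CPM. Its IL-1β label overlapped the controls, and the difference was -1.07 (SE 0.05).

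Since the interferon genes moved together, their promoters were searched for the core of the interferon-response element, GAAANNGAA, on either strand in the 250 bases before each gene's start, from the RefSeq promoter table of GRCm38.p6. It occurred in 7.16% of 27025 promoters, in 9 of the 23 interferon-stimulated genes with an entry in the table and in 7 of the 7 guanylate-binding protein and GTPase genes with one. Among other lists the core occurred in 2 of 8 CXC chemokine genes, 3 of 16 MHC class I genes and 3 of 22 fibrillar collagen and matrix genes. It occurred in 0 of 20 PPAR targets and 0 of 23 cell cycle genes. The 4 stretches shown were chosen among the named interferon genes that hold a match, after the matches were seen, and each is read 5′ to 3′ on its gene's strand, with capitals marking every match. They lie at chr4:156200836-156200936, minus strand for Isg15, chr19:34640740-34640853, plus strand for Ifit1, chr3:142620565-142620653, plus strand for Gbp2 and chr11:48871421-48871490, minus strand for Irgm1.
Isg15: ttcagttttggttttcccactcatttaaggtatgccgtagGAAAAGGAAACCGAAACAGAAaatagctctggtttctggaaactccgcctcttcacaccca
Ifit1: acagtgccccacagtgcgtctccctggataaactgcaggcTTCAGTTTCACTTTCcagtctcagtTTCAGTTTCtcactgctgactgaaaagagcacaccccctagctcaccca
Gbp2: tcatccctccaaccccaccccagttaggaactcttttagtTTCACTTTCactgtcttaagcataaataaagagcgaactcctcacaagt
Irgm1: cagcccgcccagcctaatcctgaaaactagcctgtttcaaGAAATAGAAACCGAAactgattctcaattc
Isg15 and Ifit1 hold 3 matches each, some of them overlapping, Irgm1 holds 2 and Gbp2 holds 1. The last match ends 57 bases before the start of Isg15, 75 before that of Ifit1, 49 before that of Gbp2 and 15 before that of Irgm1. A match describes the letters only and shows no binding.

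The same windows were searched on both strands for the NF-kB forms GGGANTTTC and GGGGNTTTC. They occurred in 1.93% of all promoters, in 4 of 8 CXC chemokine genes with an entry and in 2 of 6 CC chemokine genes. The count was 6 of 28 for the IL-1 receptor and NF-kB pathway and 0 of 23 for interferon-stimulated genes. It was 2 of 7 for interleukins and colony-stimulating factors, 2 of 10 for complement and acute-phase genes and 1 of 7 for Toll-like receptors. Leukocyte adhesion had 0 of 5, and nitric oxide and arginine 0 of 4. The cell cycle list had 2 of 23, MHC class I 2 of 16, guanylate-binding proteins and GTPases 1 of 7, and fibrillar collagen and matrix genes 0 of 22. Cxcl1 and Cxcl2 are shown because they share the motif yet only the first differed between labels, and Il6 and Nfkbia because they rose stepwise. They lie at chr5:90891134-90891222, plus strand for Cxcl1, chr5:90903762-90903850, plus strand for Cxcl2, chr5:30013030-30013113, plus strand for Il6 and chr12:55492648-55492800, minus strand for Nfkbia, again with capitals at each match.
Cxcl1: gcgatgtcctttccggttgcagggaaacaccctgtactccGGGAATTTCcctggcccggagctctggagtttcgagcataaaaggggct
Cxcl2: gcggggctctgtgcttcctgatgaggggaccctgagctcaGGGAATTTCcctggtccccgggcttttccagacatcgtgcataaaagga
Il6: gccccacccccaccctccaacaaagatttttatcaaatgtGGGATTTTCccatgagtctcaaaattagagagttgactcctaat
Nfkbia: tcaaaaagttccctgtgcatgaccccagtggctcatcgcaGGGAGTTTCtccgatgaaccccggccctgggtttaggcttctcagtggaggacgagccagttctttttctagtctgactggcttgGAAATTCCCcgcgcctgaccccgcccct
The last match ends 62 bases before the start of Cxcl1, 88 before that of Cxcl2, 35 before that of Il6 and 19 before that of Nfkbia. The PPAR half-site AGGTCA repeated in 1 direction with 1 base between occurred in 10 of the 27025 promoters (0.037%) and in 0 of the 20 PPAR targets with an entry. That says only that these letters are not in that window.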

How the data were processed

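Bulk RNA of murine gingival fibroblasts was sequenced in 16 libraries. The values are raw counts per gene, which the authors made by trimming reads with Trimmomatic 0.39, aligning them with STAR 2.7.10a and counting with HTSeq 2.0.9. The 5 summary lines after the 56941 genes, equal to 18.3% to 20.4% of the gene counts and summary counts together in the 8 libraries, were left out. The 8 libraries labelled palmitate (replicates 9 to 12) and IL-1β (5 to 8) were fitted in a model of their own, with one mean per condition. Genes were filtered with filterByExpr (at least 10 counts, total of at least 15), scaled by TMM and tested in edgeR 4.0.16 (limma 3.58.1, R 4.3.3) by robust quasi-likelihood, and genes were called when p, adjusted by the Benjamini-Hochberg method, was under 0.05. Fold changes are given on the log2 scale as palmitate minus IL-1β. The SE beside a fold change was derived from the test. It is the size of the log2 fold change divided by the square root of the quasi-likelihood F statistic. CPM come from all 16 libraries, scaled together. Depth was 21234789 to 92752515 gene counts per library.

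Named genes were the 12 highest and the 12 lowest fold changes of called genes with an average log2 CPM of at least 1 and no overlap, the 3 members of each list with the highest mean CPM, the 3 with the smallest p, and a set of fixed names. Lists and fixed names were chosen with earlier results of these data known. Positions are from GENCODE vM39 on GRCm39, where 56323 genes were found, and promoters from RefSeq on GRCm38.p6. Shared sequence means blastn 2.17.0 matches of at least 95% identity over at least 100 bases. Alternatives were DESeq2 1.42.0, 2 other normalizations, 2 other filters, a fit of all 16 libraries, the removal of mitochondrially encoded and ribosomal RNA genes, each library left out in turn, and glmTreat against a log2 fold change of 1. Other steps used Python 3.11.15 with pandas 2.3.3, numpy 2.4.6, scipy 1.17.1 and matplotlib 3.10.9. The procedure was tested on simulated data.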

Additional observations from a re-analysis of the deposited data

Results flagged for a closer look

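In each value below a single library stood far from the other 3 of its group, judged by its gap to the nearest of them against the range of the group. Of 366 groups of 4 libraries tested 22 (6.01%) had such a library, and chance gives about 1 in 20. Palmitate replicate 12 accounts for 6 of the 22. No cause was tested.

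Under the palmitate label, replicate 12 was lowest for Iigp1 (29.3 CPM, the other 3 at 39.0 to 39.96), Vcam1 (547, others 571 to 575), Acly (163, others 170.2 to 171) and Herpud1 (61.3, others 65.0 to 65.3), and highest for Ccl5 (47.3, others 41.7 to 41.9) and Cd44 (1036, others 991 to 995). Replicate 11 was highest for Zc3h12a (50.7 CPM, others 46.0 to 46.1) and lowest for Col1a1 (13206, others 14193 to 14393) and Notch3 (11.0, others 14.2 to 14.8). Replicate 10 was highest for Plin2 (53.6 CPM, others 48.6 to 49.2) and for the number of gene counts, 92752515 with the others at 21234789 to 27076430.

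Under the IL-1β label, replicate 5 was highest for Isg15 (0.286 CPM, others 0.0949 to 0.124, which are 7 counts against 3 in each of the others) and Slc39a8 (4.91, others 4.05 to 4.17). Replicate 6 was lowest for Tnfrsf11b (56.9 CPM, others 59.5 to 59.9) and Ccl28 (5.77, others 7.84 to 8.05). Replicate 7 was highest for Cxcl1 (165 CPM, others 145 to 148), Nfkb1 (79.9, others 74.003 to 74.2) and the number of gene counts (31314557, others 24376996 to 25347673). Replicate 8 was highest for Slc39a10 (47.2 CPM, others 43.6 to 43.7) and Notch3 (22.1, others 20.2 to 20.4), and lowest for Pnp (10.7, others 11.3 to 11.4) and Acta2 (2736, others 3084 to 3145).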

How the results depend on the processing

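The number of genes called at an adjusted p under 0.05, 5375 of 15141, ranged from 4340 without palmitate replicate 10 to 5410 with upper-quartile normalization, where 47.4% of calls were higher under the palmitate label against 51.5% with TMM. No gene called in both fits had opposite signs in any alternative. DESeq2 called 5067 genes, 5016 of them shared with the 5375. Tested against a log2 fold change of 1, glmTreat called 251 genes, 200 higher and 51 lower, since that asks for a larger difference.

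Of 165 named genes called, 150 kept their call and direction wherever they were tested, over 15 settings. The other 15, such as Agpat2, Traf6, Ccl28, S100a4 and Me1, each lost the call in at least 1 setting without changing sign. Mt1 and Mt2, not called in the comparison as reported, were called with DESeq2, without an expression filter, in the fit of all 16 libraries and without IL-1β replicate 5. The sign changed in 4 genes that were never called. Mcam was -0.011 without IL-1β replicate 5 and up to 0.090 without 7. Cxcl2 was -0.16 without palmitate replicate 10 and up to 0.086 without 12. Atf4, which ranged from -0.054 to 0.0073 with a library left out, was positive without IL-1β replicate 6 (0.0027) or 7 (0.0073) or palmitate replicate 9 (0.0013). Slc39a8 was -0.042 without palmitate replicate 10 and -0.0023 without 12, and up to 0.13 with another library left out. The cause was not tested.

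With at least 10 counts demanded in every library, fewer genes were tested and the list medians were 1.72 for CXC chemokines, 1.51 for CC chemokines, 2.00 for interferon-stimulated genes, 0.13 for leukocyte adhesion and -0.45 for PPAR targets. That filter gave no value for Lcn2, Serpina3f, Cxcl9, Isg15, Zbp1, Fads6, Tek, Cdh5, Vwf, Oas3 and Selp. Leaving out mitochondrially encoded genes gave none for mt-Co3. With each library left out in turn, medians ran from 1.54 to 1.75 for CXC chemokines, 1.64 to 1.73 for CC chemokines, 0.55 to 0.77 for interleukins, 3.09 to 3.24 for guanylate-binding proteins, 0.89 to 1.04 for MHC class I and 0.87 to 1.03 for complement. They ran from -0.17 to -0.11 for fatty acid uptake and droplets, 0.22 to 0.27 for cholesterol, 0.14 to 0.18 for NRF2 targets and 0.045 to 0.10 for myofibroblast genes. Medians near 0 changed sign, with -0.026 to 0.0032 for metalloproteinases, -0.012 to 0.0059 for the ATF4 program, -0.038 to 0.018 for the cell cycle and -0.032 to 0.021 for fatty acid synthesis, and that of adenosine and AMP handling ran from -0.18 to -0.092. The cause was not tested.

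No paired analysis was possible because the replicate numbers 1 to 16 are not shared between conditions. With 4 libraries per label, and with no record of whether these were separate cultures, the kind of spread behind each p is unknown. Genes with few counts, such as Lcn2 and Selp, have imprecise folds. The deepest library, palmitate replicate 10, has 92752515 counts and the shallowest, palmitate replicate 9, has 21234789, so scarce genes are measured unevenly within that label. Sequence shared between genes limits the levels of family members. The comparison reads RNA at a single time, and the doubt about the labels applies to every direction given.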
